A study of Mus musculus with 8 samples.

Results

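The genes examined were 10 genes of the neutrophil and myeloid programme, *Mpo*, *Elane*, *Prtn3*, *Ctsg*, *Ms4a3*, *Cebpa*, *Cebpe*, *S100a8*, *S100a9* and *Ltf*, out of 55487 gene identifiers counted by bulk RNA-seq in LT-HSCs, the long-term repopulating hematopoietic stem cells. They were taken by name, all 10 were found and all 10 passed the filter of 10 reads summed over the 8 libraries. Each library held 500 cells with the LSK CD48- CD150+ surface phenotype, sorted from the fetal liver (FL) of a single embryo at E14.5. There were 3 *IκBα* WT, 3 HET and 2 KO libraries, and HET and KO embryos carried 1 and 2 copies of the Nfkbia tm1Bal allele, a targeted knockout of the gene for the NF-κB inhibitor IκBα in every tissue. Parents could also carry a Gfi1:tomato reporter, and the labels do not say which embryos did. A further KO library was dropped by the study for its sequencing quality and was not analysed here. The cDNA of so few cells was amplified by PCR before sequencing. WT1, WT2 and HET1 were male and recorded as total RNA, whereas WT3, HET2, HET3, KO1 and KO2 were female and recorded as polyA RNA, so sex and RNA label cannot be told apart, and both KO embryos were female. The antibody mix that removed lineage-positive cells from the FL left out CD11b, a surface protein of granulocytes and macrophages. In bulk samples such as these, fewer cells of a type and less RNA per cell cannot be told apart.

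Neutrophils are made in steps, and each step fills its own granules. At the promyelocyte stage the cell makes primary (azurophil) granules, which carry myeloperoxidase (*Mpo*) and the serine proteases neutrophil elastase (*Elane*), proteinase 3 (*Prtn3*) and cathepsin G (*Ctsg*). *Ms4a3*, a membrane protein gene, marks granulocyte-monocyte progenitors. *Cebpa* encodes the factor that opens the granulocyte programme and *Cebpe* the factor needed for its later, secondary granule stage. *S100a8* and *S100a9* encode the 2 subunits of calprotectin, an abundant cytosolic protein of mature neutrophils, and *Ltf* encodes lactoferrin of the secondary granules. Low levels of early granule transcripts in stem and progenitor cells are commonly called myeloid priming.

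On GRCm38 the genes lay on chromosome 11 (*Mpo*, chr11:87793581-87804413), chromosome 10 (*Prtn3*, chr10:79874476-79883174, and *Elane*, chr10:79886247-79888215), chromosome 14 (*Ctsg*, chr14:56099881-56102574, and *Cebpe*, chr14:54710360-54712174), chromosome 19 (*Ms4a3*, chr19:11629496-11640851), chromosome 7 (*Cebpa*, chr7:35119293-35121928), chromosome 3 (*S100a8*, chr3:90668978-90670035, and *S100a9*, chr3:90692632-90695721) and chromosome 9 (*Ltf*, chr9:111019271-111042767). *Prtn3* and *Elane* are neighbours on the same strand with 3072 bp between them, and *S100a8* and *S100a9* lie 22596 bp apart on opposite strands. Exons of *Mpo*, *Prtn3* and *Cebpa* overlap *Gm11505*, *Plppr3* and *Gm45091* on the other strand. The strand setting of the counting is not given in the sources used here. How reads within these overlapping stretches were counted is thus not known. The promoters of 2 pairs of genes that stood apart in these libraries are printed, the neighbours *Prtn3* and *Elane* and the late genes *S100a8* and *Ltf*. Each runs 5′ to 3′ from 250 bases before the RefSeq start (GRCm38.p6) to the last base before an annotated GENCODE exon of the gene. Capitals mark matches to the C/EBP letters TTNNGNAA or the PU.1 letters GAGGAA, on either strand.
Prtn3 promoter (chr10:79879417-79879613, plus strand): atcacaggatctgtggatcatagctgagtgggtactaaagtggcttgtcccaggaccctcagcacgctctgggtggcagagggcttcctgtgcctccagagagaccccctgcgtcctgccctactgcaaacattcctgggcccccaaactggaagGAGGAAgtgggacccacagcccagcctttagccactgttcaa
Elane promoter (chr10:79886062-79886246, plus strand): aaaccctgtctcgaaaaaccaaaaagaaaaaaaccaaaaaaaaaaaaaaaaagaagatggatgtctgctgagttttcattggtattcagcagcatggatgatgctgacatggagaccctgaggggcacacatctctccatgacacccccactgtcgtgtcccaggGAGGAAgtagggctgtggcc
S100a8 promoter (chr3:90668821-90668977, plus strand): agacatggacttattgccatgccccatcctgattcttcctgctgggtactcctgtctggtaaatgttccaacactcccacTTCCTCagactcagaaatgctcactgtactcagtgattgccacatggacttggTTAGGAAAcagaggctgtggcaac
Ltf promoter (chr9:111019042-111019270, plus strand): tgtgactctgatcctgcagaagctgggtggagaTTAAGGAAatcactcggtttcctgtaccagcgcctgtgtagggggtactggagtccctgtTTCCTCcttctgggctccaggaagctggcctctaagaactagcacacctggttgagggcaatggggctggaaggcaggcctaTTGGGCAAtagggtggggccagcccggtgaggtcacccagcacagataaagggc

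C/EBP factors and PU.1 are the main transcription factors of the granulocyte lineage. Over the 300 bases around each RefSeq start (250 before, 50 after), which 9 of the 10 genes had, the PU.1 letters were found in 7 of 9 (*S100a8*, *Ltf*, *Prtn3*, *Elane*, *Mpo*, *Ctsg* and *Ms4a3*), beside 28.3% of the 32851 promoters of this length. The C/EBP letters were found in 4 of 9 (*S100a8*, *S100a9*, *Ltf* and *Ms4a3*), beside 40.7% of all promoters. The NF-κB consensus was found in 0 of 9, beside 8.46%. *Prtn3* and *Elane* each held 1 PU.1 match, 95 and 85 bases before the start. *S100a8* and *Ltf* both held C/EBP and PU.1 matches. No C/EBP match overlapped a PU.1 match in these genes. The matches describe letters in a window and not binding.

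The libraries held between 17895973 and 21720972 reads on genes. Levels are given as CPM, the reads of a gene relative to the size of its library, scaled by the TMM method, and the 3 reads taken as the smallest readable count were 0.125 to 0.178 CPM. *Nfkbia* stood at 23.4 to 67.7 CPM in WT, 14.4 to 29.0 CPM in HET, and at 1 read in KO1 and 0 reads in KO2. The libraries differed in cell identity markers before any granule gene was considered. The summed level of 11 LT-HSC markers was 1959, 2003 and 282.2 CPM in WT1, WT2 and WT3, 666.0, 573.3 and 204.3 CPM in HET1, HET2 and HET3, and 1849 and 1217 CPM in KO1 and KO2. WT3 and HET3 had the least of it and the most of 6 fetal hepatocyte genes (1158 and 570.7 CPM, against 6.26 to 213.8 CPM in the other 6), and *Ly6a* and *Hoxb5*, 2 of the LT-HSC markers, were at 0 reads in HET3. The KO and HET comparisons were also made without WT3 and HET3.

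Among the early granule genes, *Mpo* and *Prtn3* were present in all 8 libraries. *Mpo* was at 68.2, 49.1 and 455.6 CPM in WT1, WT2 and WT3, at 265.5, 296.3 and 61.3 CPM in HET1, HET2 and HET3, and at 108.7 and 43.1 CPM in KO1 and KO2. Its lowest library was KO2 and its highest WT3, and every genotype overlapped the others. *Prtn3* was at 105.4, 80.2 and 93.2 CPM in WT, 97.0, 92.7 and 18.3 CPM in HET, and 151.7 and 75.8 CPM in KO. Apart from HET3 and KO1, its 6 libraries stayed between 75.8 and 105.4 CPM. KO1 was the highest of the 8 for *Prtn3* and KO2 was below all 3 WT libraries.

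*Elane* moved over a far wider range than its neighbour *Prtn3*. It was at 0.655, 0.0836 and 112.4 CPM in WT, at 40.7, 119.8 and 4.39 CPM in HET, and at 22.8 and 0.639 CPM in KO. In reads these were 14, 2 and 2158 in WT, 765, 2375 and 74 in HET, and 465 and 13 in KO. WT1, WT2 and KO2 were thus close to empty of elastase transcript while *Prtn3* was at 75.8 to 105.4 CPM in the same 3 libraries. Per kilobase of exon, *Elane* came to 0.00183 of the *Prtn3* level in WT2 and to 2.28 times the *Prtn3* level in HET2. Both promoters printed above carry a PU.1 match at a similar distance from the start.

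*Ctsg* and *Ms4a3* were the less abundant early genes. *Ctsg* was at 2.06, 0 and 13.0 CPM in WT, at 10.2, 19.0 and 3.38 CPM in HET, and at 0.245 and 0 CPM in KO, the KO values being 5 reads and 0 reads. Both KO libraries were below all 3 HET libraries and below WT1 and WT3, but WT2 also had 0 reads. *Ms4a3* was at 3.32, 3.43 and 15.7 CPM in WT, 5.16, 19.0 and 3.91 CPM in HET, and 7.0 and 2.16 CPM in KO, and its genotypes overlapped.

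The 2 transcription factor genes were near the limit of detection. *Cebpa* was at 0.328, 0.251 and 0.937 CPM in WT, 1.01, 0.454 and 0.475 CPM in HET, and 0.538 and 0.492 CPM in KO, from 6 to 19 reads in each library. *Cebpe* was at 0.936, 0.961 and 2.14 CPM in WT, 0.532, 1.72 and 0.949 CPM in HET, and 1.91 and 0 CPM in KO, where KO1 had 39 reads and KO2 none. At this depth differences in *Cebpa* between genotypes were not detectable. Per kilobase *Cebpa* and *Cebpe* were the lowest of the 10 by median (0.183 and 0.770 CPM per kb), far from *Prtn3* at 53.7 and *Mpo* at 25.8 CPM per kb.

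The late genes split into 2 unlike profiles. *S100a8* was at 0.515, 0.460 and 116.9 CPM in WT, 5.21, 21.9 and 13.8 CPM in HET, and 118.2 and 14.4 CPM in KO. *S100a9* was at 0.842, 0.251 and 122.9 CPM in WT, 0.479, 43.1 and 17.9 CPM in HET, and 104.6 and 12.0 CPM in KO. WT3 and KO1 were the highest 2 libraries for both calprotectin genes, and WT1 and WT2, with 6 to 18 reads, were among the lowest 3. *Ltf* ran the other way, at 19.7, 14.9 and 0.156 CPM in WT, 4.73, 1.31 and 0 CPM in HET, and 9.79 and 3.54 CPM in KO. Its highest libraries were WT1 and WT2, and it had 3 reads in WT3 and none in HET3, where calprotectin was at 239.8 and 31.6 CPM in sum.

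**Figure D1:**
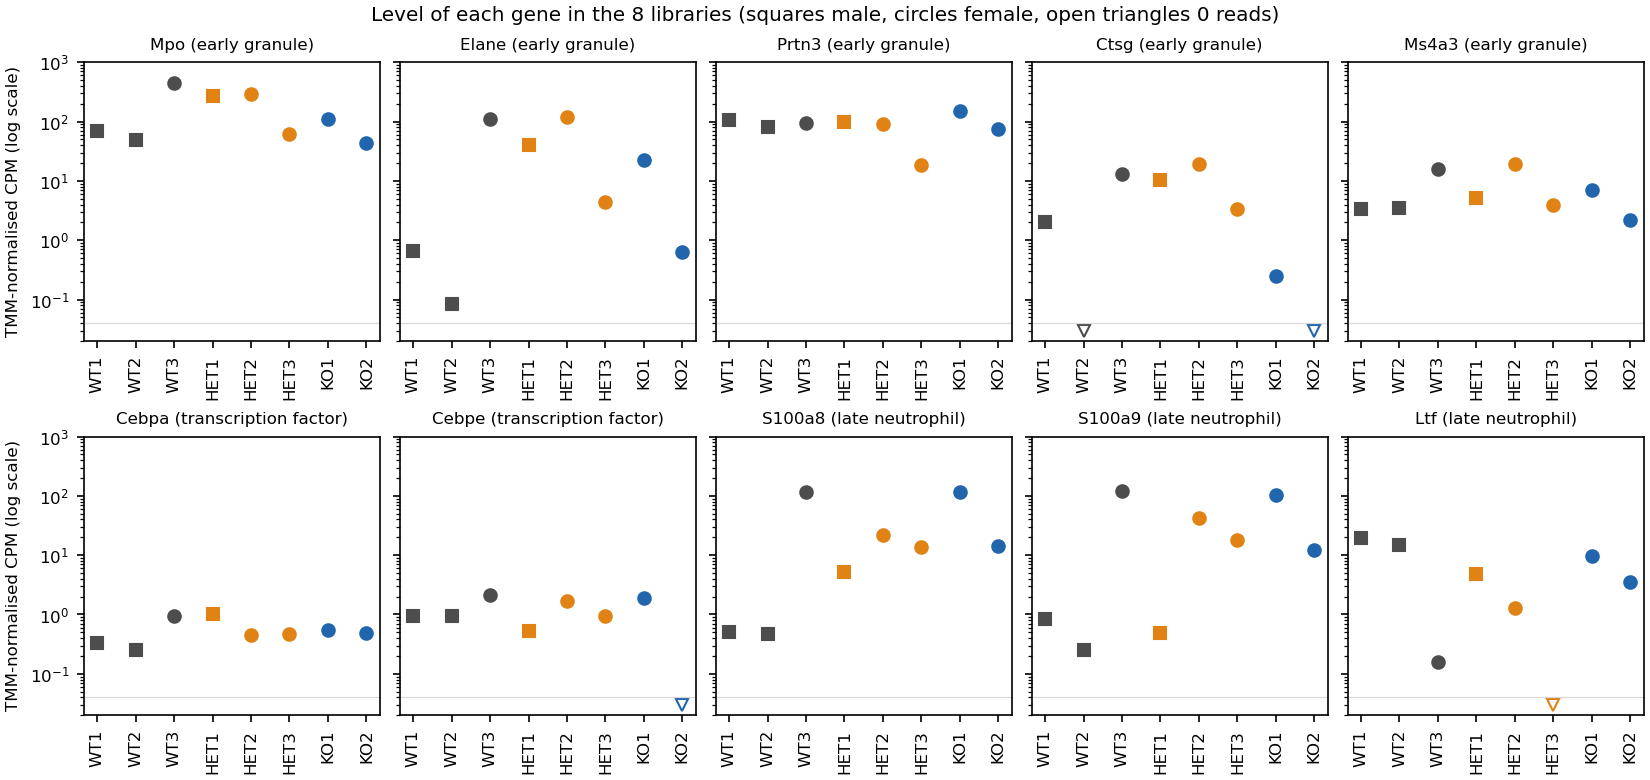
Level of each of the 10 genes in the 8 libraries as TMM-normalised CPM on a log scale, with 1 point for each library, squares for male and circles for female embryos, and open triangles under the grey line for 0 reads. *Prtn3* lies between 75.8 and 105.4 CPM except in HET3 (18.3 CPM) and KO1 (151.7 CPM), *Elane* spans 0.0836 to 119.8 CPM, and *Ltf* is high where *S100a8* and *S100a9* are low in WT1 and WT2.

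Likeness of profile was measured as the root mean square difference of centred log2 CPM over the 8 libraries, among 10099 genes with a mean of at least 5 CPM. The nearest profiles to *Mpo* were those of *Pttg1* (securin, a cell division gene, 0.57), *Rpl3-ps1* (0.76), *Parvb* (0.79), *Gm45223* (0.82) and *Uqcrq* (0.83), where the median over all genes was 1.26. Among the members *Ms4a3* was the nearest to *Mpo* (0.59) and *Ltf* the farthest (3.23). The nearest to *Elane* was *Hp*, the haptoglobin gene (1.45), and the nearest to *Prtn3* was *Fcer1g*, an Fc receptor subunit (0.36). *Prtn3* and *Elane* differed by 3.32, close to the median of all genes from *Elane* (3.38). The nearest to *Ltf* were *Cd200* (0.46), *Thsd1* (0.48), *Eya2* (0.48), *B4galt4* (0.54) and *Cd96* (0.54), while *S100a8* and *Ltf* differed by 4.71. The nearest to *S100a8* was *Xist*, which is expressed from the inactive X of female cells (0.96), and *S100a9* differed from *S100a8* by 1.21. These are descriptions over 8 libraries that also differ in sex and in marker levels, and the profiles of genes other than *Mpo* were compared after their values were seen.

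To compare early with late genes, the 5 early genes and the 3 late genes were summed in each library. The early sum was 179.6, 132.8 and 689.9 CPM in WT, 418.5, 546.8 and 91.3 CPM in HET, and 290.5 and 121.7 CPM in KO. The late sum was 21.1, 15.6 and 240.0 CPM in WT, 10.4, 66.3 and 31.6 CPM in HET, and 232.6 and 30.0 CPM in KO. The early sum exceeded the late sum in 8 of 8 libraries, and without *Mpo* in 5 of 8. The ratio of early to late was 8.53, 8.50 and 2.87 in WT, 40.2, 8.25 and 2.89 in HET, and 1.25 and 4.06 in KO. It was lowest in KO1 and highest in HET1, while KO2 lay inside the range of the WT libraries. The late sum spread over 23.1-fold and the early sum over 7.56-fold. Without *Ltf* the late sum was 1.36, 0.71 and 239.8 CPM in WT1, WT2 and WT3. It was then 5.69, 65.0 and 31.6 CPM in HET, and 222.8 and 26.5 CPM in KO. The ratios of WT1 and WT2 thus rested on *Ltf*, and so did the place of HET1 as the highest and the spread of the late sum.

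The make-up of the early sum did not divide the libraries by genotype. *Prtn3* gave 58.7% and 60.4% of the early sum in WT1 and WT2 and 52.2% and 62.3% in KO1 and KO2. In WT3, HET1, HET2 and HET3 it gave 13.5%, 23.2%, 16.9% and 20.1%, with *Mpo* at 54.2% to 67.1%. The ratio of *Mpo* to *Prtn3* CPM was 0.647, 0.613, 0.717 and 0.569 in WT1, WT2, KO1 and KO2, and 4.89, 2.74, 3.20 and 3.35 in WT3, HET1, HET2 and HET3. The 4 libraries with a ratio below 1 were the 4 with the highest summed LT-HSC markers (1217 to 2003 CPM), and the other 4 had the lowest (204.3 to 666.0 CPM). *Ltf* gave 93.6% and 95.5% of the late sum in WT1 and WT2, 45.4% in HET1, and 0.0651%, 1.98%, 0%, 4.21% and 11.8% in WT3, HET2, HET3, KO1 and KO2. The late sum thus divided the libraries otherwise than the early sum, with the 3 male libraries apart from the 5 female ones and both KO libraries beside WT3, HET2 and HET3. These shares and ratios were picked out after the values were seen and are given with no test, and the part of library composition in them was not tested.

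**Figure D2:**
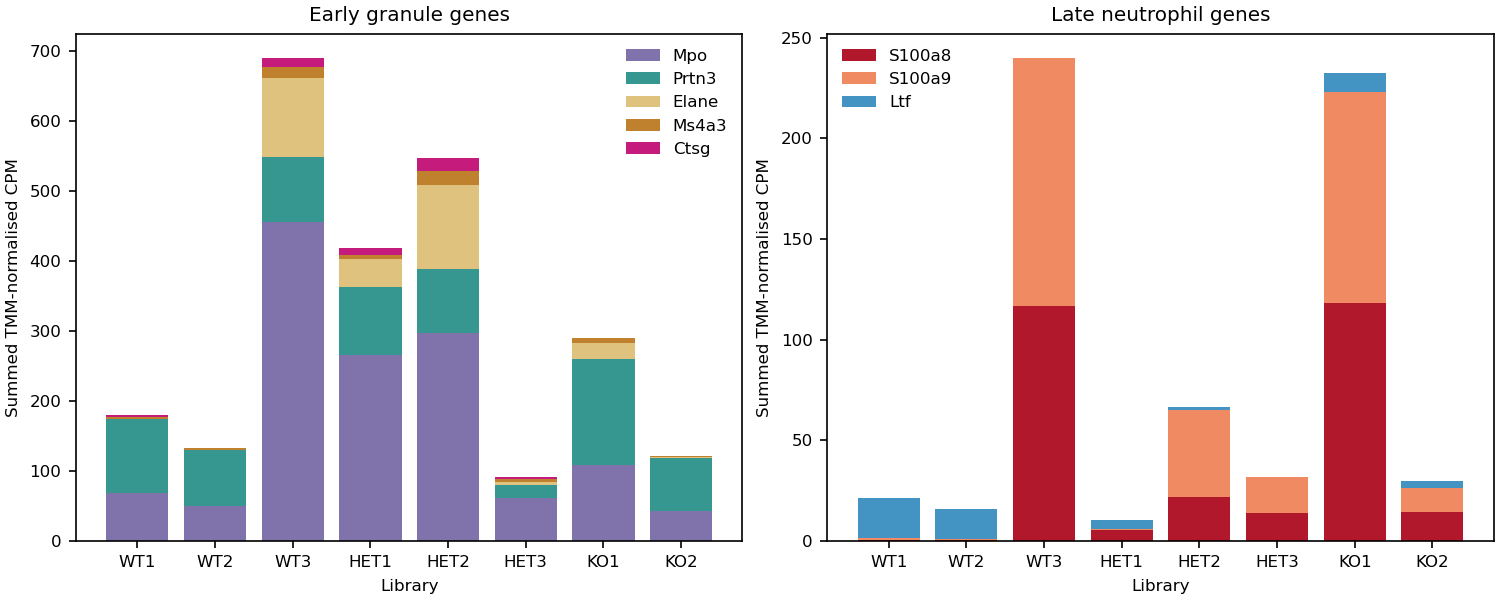
Stacked bars of TMM-normalised CPM in each library, for the 5 early granule genes (left) and the 3 late neutrophil genes (right), each axis starting at 0 on its own scale. Early sums run from 91.3 CPM in HET3 to 689.9 CPM in WT3, and the 2 tallest late sums are WT3 (240.0 CPM) and KO1 (232.6 CPM).

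**Figure D3:**
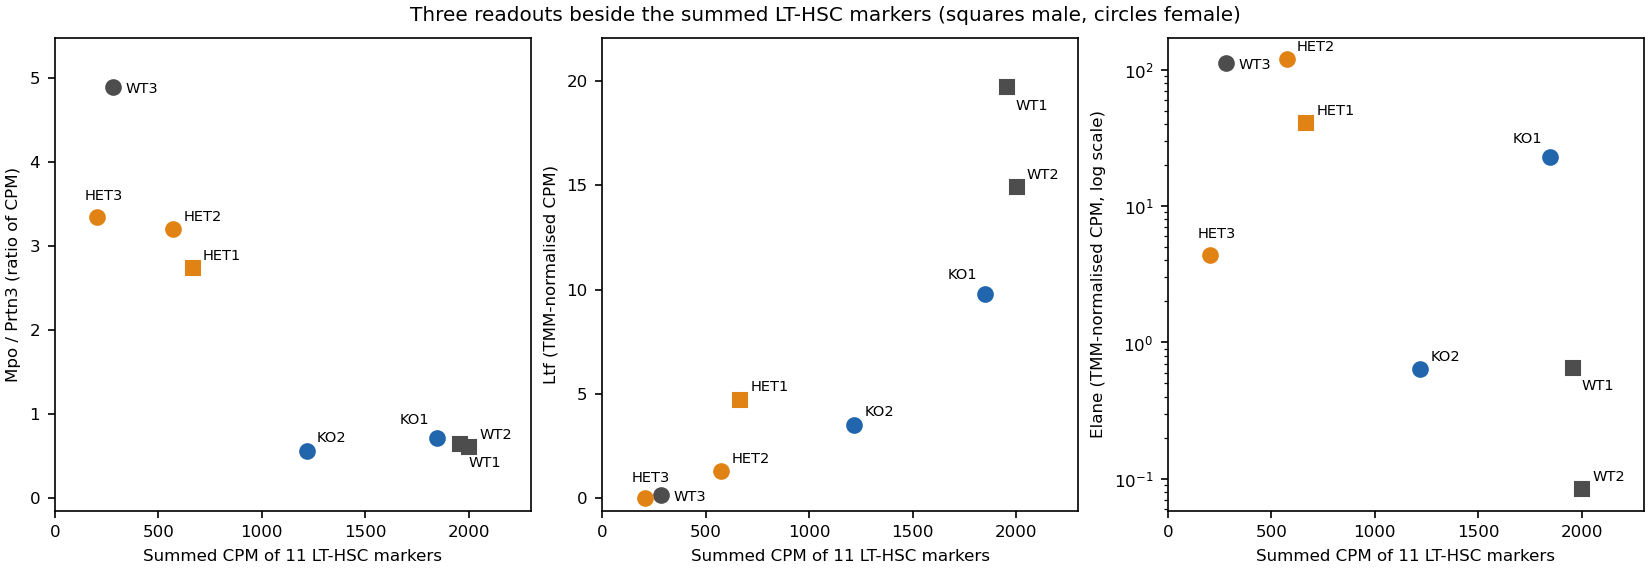
The ratio of *Mpo* to *Prtn3*, the level of *Ltf* and the level of *Elane* (log scale) in each library against its summed CPM of 11 LT-HSC markers, with colour for genotype and shape for sex. WT1, WT2, KO1 and KO2 lie to the right with ratios of 0.569 to 0.717, and *Ltf* runs from 0 CPM in HET3 on the left to 19.7 CPM in WT1 on the right.

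KO libraries were then compared with the 6 WT and HET libraries, which asks whether loss of IκBα changed the granule programme. With sex in the model, 0.0% of the 20610 genes tested passed an adjusted p of 0.05 and a 2-fold change in edgeR's quasi-likelihood test, and 0 of the 10 members did. At an unadjusted p under 0.05 there were 5196 genes, 15.7% of all rising and 9.48% falling, and 2 members, *Ltf* upward and *Ctsg* downward. *Ltf* had a log2 fold change of 3.73 ± 1.21 (SE, edgeR adjusted p = 0.153) and *Ctsg* of -6.52 ± 2.27 (edgeR adjusted p = 0.156). Both KO libraries were beyond all 6 others for none of the members, above (3.05% of all genes) or below (1.79%).

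The other early granule genes had log2 fold changes in KO of -1.84 ± 0.97 for *Mpo*, -2.75 ± 2.27 for *Elane* and -1.49 ± 0.74 for *Ms4a3*, and *Prtn3* stood on the other side at 0.74 ± 0.59. Their edgeR adjusted p-values were 0.259, 0.462, 0.238 and 0.444. The 2 KO libraries pulled these values apart. Without KO1 the log2 fold changes of *Mpo*, *Elane*, *Ms4a3* and *Prtn3* were -2.65, -6.93, -2.57 and 0.15, and without KO2 they were -1.32, -1.79, -0.88 and 1.15. *Prtn3* was at 0.28 without HET3. *S100a8* and *S100a9* were near 0 at 0.38 ± 1.25 and -0.07 ± 0.94, and *Cebpa* and *Cebpe* were at -0.27 ± 0.86 and -0.74 ± 1.30, with adjusted p from 0.742 to 0.975 in the same edgeR fit. An exact two-sided permutation test of log2 CPM over the 8 libraries, which cannot go below 0.0714, gave 0.214 for *Ctsg*, 0.643 for *Ltf* and 0.286 to 0.929 for the other 8.

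*Ltf* and *Ctsg* depended on the tool and the reference. DESeq2 called both (*Ltf* 3.73, adjusted p = 0.0193, and *Ctsg* -6.62, adjusted p = 0.0380, in a fit that called 8.85% of genes). With apeglm shrinkage, 7.07% of genes were called, *Ltf* at 2.88, and *Ctsg* shrank to -0.10. edgeR without the filter on low counts called both (3.51% of genes). Against WT libraries only, edgeR called *Ltf* (5.37, adjusted p = 0.0488, 3.67% of genes), and without HET2 it also did (6.25, adjusted p = 0.0431, 3.48% of genes). With sex in the model, the first of these 2 fits had only WT3 as a female reference. The second had WT3 and HET3, with 3 and 0 reads of *Ltf*. WT1 and WT2, at 19.7 and 14.9 CPM, were above both KO libraries (9.79 and 3.54 CPM). Across the edgeR and DESeq2 alternatives the log2 fold change of *Ltf* ran from -0.73 to 6.25, and the 3 fits with no sex term gave it a value below 0.

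With sex in the model, the KO fold changes were set by the 3 female references, WT3, HET2 and HET3. Leaving out WT1, WT2 or HET1 moved no member's log2 fold change by more than 0.02, and the fit of the 5 female libraries alone lay within 0.07 of it for every member. *Ltf* was at 9.79 and 3.54 CPM in the KO libraries and at 0.156, 1.31 and 0 CPM in the female references, with no overlap, but at 19.7, 14.9 and 4.73 CPM in the male references. *Ctsg* was at 0.245 and 0 CPM in KO against 13.0, 19.0 and 3.38 CPM in the female references, again with no overlap. For both genes the exact permutation test of these 2 against 3 libraries gave 0.2, the smallest it can give. Every gene with no overlap here gets this value, and the share of all genes with none was not counted. Without that share, and with a test that cannot go below 0.2, the lack of overlap cannot be read as a change in either gene or as its absence. Without sex in the model *Ltf* was at -0.03 ± 1.71 and *Ctsg* at -5.95 ± 2.33 (edgeR adjusted p = 0.998 and 0.978). Without WT3 and HET3, and with sex, *Ltf* was at 2.31 ± 1.06 and *Ctsg* at -7.24 ± 2.59 (edgeR adjusted p = 0.671 for both), and this reference for KO is 1 female library.

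**Figure D4:**
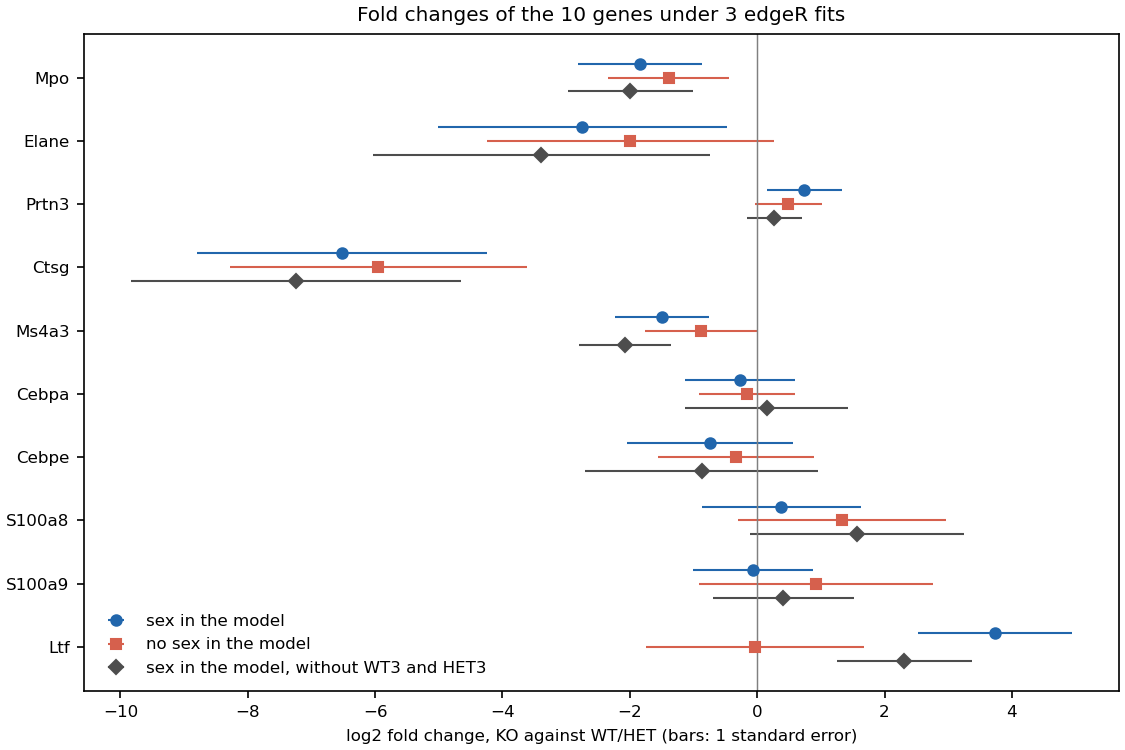
log2 fold changes of the 10 genes in KO against WT/HET from 3 edgeR fits, each point with a bar of 1 standard error. *Ltf* moves from 3.73 with sex in the model to -0.03 without it, and *Ctsg* stays between -5.95 and -7.24 in the 3 fits shown.

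The female libraries also differed from the male ones in the late genes. All 3 female WT/HET libraries were above all 3 male ones for *S100a8* and *S100a9* (17.5% of all genes did so) and below them for *Ltf* (21.1% of all genes), so 2 and 1 of 10 members were near these backgrounds. Without WT3 and HET3, HET2 is the only female reference left, and its 21.9, 43.1 and 1.31 CPM of *S100a8*, *S100a9* and *Ltf* still lay beyond all 3 male libraries. The female coefficient of the edgeR fit was 4.65 ± 1.34 for *S100a8*, 6.86 ± 1.13 for *S100a9* and -4.70 ± 1.20 for *Ltf* (adjusted p = 0.0901, 0.0895 and 0.0895). That coefficient passed the threshold for 0.0194% of genes and for no member, with 6679 genes at an unadjusted p under 0.05. The 3 female references also had the 3 lowest sums of LT-HSC markers (204.3 to 573.3 CPM), and the part of this in the difference was not tested.

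HET was compared with WT to ask whether loss of 1 copy of *Nfkbia* was enough. edgeR called 0.0% of 19542 genes and 0 of the 10 members, with 754 genes and 0 members at an unadjusted p under 0.05, and DESeq2 called 52 genes and no member. The log2 fold changes were 0.41 ± 0.90 for *Mpo*, 2.48 ± 2.28 for *Elane*, -0.34 ± 0.57 for *Prtn3*, 1.5 ± 1.46 for *Ctsg* and 0.07 ± 0.62 for *Ms4a3*. *S100a9* came nearest to a change at -1.39 ± 0.62 (edgeR adjusted p = 0.919), and it was called when the filter on low counts was dropped (adjusted p = 0.0387, in a fit calling 0.444% of genes). Without WT3 it was at -0.18 ± 0.98 (edgeR adjusted p = 0.947), and without WT3 and HET3 at -0.16 ± 0.69. Adjusted p-values of the members lay between 0.919 and 0.999. With the replicate number as a block in place of sex, edgeR called 230 genes and no member, and with block and sex together it called none of either.

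Single libraries moved the HET comparison in both directions. Leaving out HET1 turned the sign of 7 members, among them *Mpo* (-1.35), *Elane* (-0.85), *S100a8* (-2.72) and *Ltf* (2.05), with edgeR adjusted p of 1.0 for each. Leaving out WT3 moved *Mpo* to 2.18, *Elane* to 6.79 and *S100a8* to 3.40, with no member called by edgeR (adjusted p = 0.324, 0.247 and 0.165). Without WT3 and HET3, an alternative added after the values were seen, HET1 against WT1 and WT2 set the fold change, and edgeR called 4 members, *Mpo* at 2.18 ± 0.20, *Elane* at 6.81 ± 0.46, *S100a8* at 3.41 ± 0.43 and *Ltf* at -1.87 ± 0.39, in a fit that called 10.5% of genes and had 1 residual degree of freedom in 4 libraries. HET1 had 265.5 CPM of *Mpo* beside 68.2 and 49.1 CPM in the male WT libraries, and 40.7 CPM of *Elane* beside 0.655 and 0.0836 CPM. HET1 also had fewer LT-HSC markers (666.0 CPM beside 1959 and 2003 CPM), the highest summed erythroid markers of all 8 libraries (14510 CPM) and more macrophage markers (170.4 CPM beside 40.0 and 140.9 CPM). The part of these in the result was not tested.

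The 2 KO libraries differed strongly from each other. On the log2 CPM scale with a prior count of 2, 9 of the 10 members were over 2-fold higher in KO1 than in KO2 and none was over 2-fold lower, against 15.4% and 9.49% of all 20610 genes. The 9 include *Ctsg*, with 5 and 0 reads. When counts under 3 reads were set to 3, 8 members passed, and the share of all genes was not counted in that setting. *Elane* was 35.6-fold higher (465 and 13 reads), *S100a9* 8.68-fold (2138 and 245 reads) and *S100a8* 8.20-fold (2415 and 293 reads). *Cebpe*, with 39 reads in KO1 and 0 in KO2, was at least 12.9-fold higher against the 3 readable reads in KO2. The early genes *Ms4a3*, *Mpo* and *Prtn3* were 3.23-fold, 2.52-fold and 2.0-fold higher, and *Prtn3* just passed the 2-fold limit. *Ltf* was 2.76-fold higher, *Cebpa* 1.09-fold (11 and 10 reads), and for *Ctsg* the 5 and 0 reads came to 1.66-fold against the 3 readable reads. KO1 and KO2 are 1 library each, so no test was made.

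Other pairs of libraries of the same genotype and sex differed too. WT1 was over 2-fold above WT2 for 3 members and below for none (7.05% and 10.1% of all genes), and all 3, *Elane*, *Ctsg* and *S100a9*, had 44 reads or fewer in both libraries. HET2 was over 2-fold above HET3 for 7 members and below for none (19.9% and 6.89% of all genes). In HET2 and HET3 the log2 differences were 4.74 for *Elane*, 2.33 for *Prtn3*, 2.27 for *Mpo* and 0.67 for *S100a8*. In KO1 and KO2 the same genes differed by 4.95, 1.0, 1.33 and 3.03. Calprotectin thus parted KO1 from KO2 by more than it parted HET2 from HET3, and *Mpo* and *Prtn3* by less, as values of single libraries.

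**Figure D5:**
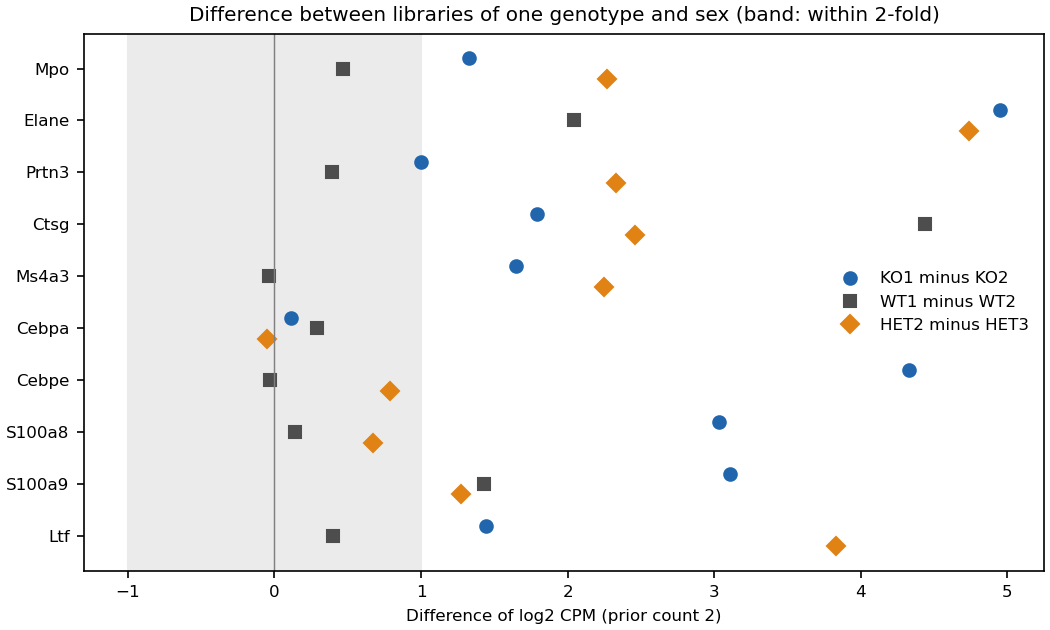
Difference of log2 CPM (prior count 2) for the 10 genes between KO1 and KO2, WT1 and WT2, and HET2 and HET3, each pair sharing genotype and sex, with a grey band for differences within 2-fold. In KO1 minus KO2, 9 of the 10 points lie above 1, among them *Ctsg* with only 5 and 0 reads, with *Elane* at 4.95, *S100a9* at 3.11 and *Cebpa* at 0.11.

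Further granule genes were taken from 3 lists. Of 19 secondary granule and mature neutrophil genes, 17 could be tested, and 11 were over 2-fold higher in KO1 than in KO2 and 1 lower. By the rule for names these included *Pglyrp1*, a peptidoglycan-binding granule protein (46.2 and 18.6 CPM), and *Anxa1*, annexin A1 (109.0 and 49.5 CPM), and *Lyz2*, lysozyme, was at 384.5 and 259.3 CPM. Chosen after their values were seen, *Camp* (cathelicidin) had 35.0 CPM in KO1 and 0 reads in KO2, *Olfm4* 15.9 CPM and 0 reads, *Ngp* 8.27 CPM and 0 reads, and *Lcn2* (lipocalin) 9.0 and 0.639 CPM. The 1 lower gene was *Mmp9* (0.489 and 2.21 CPM), and *Cxcr2* was lower by under 2-fold (2.79 and 5.41 CPM). *Chil3* and *Mmp8* had 0 reads in both. Of the 11 higher genes, *Cd177*, *Stfa2*, *Itgb2l* and *Ifitm6* rested on 12 to 18 reads in KO1 and 0 to 2 in KO2. *Camp*, *Ngp* and *Lcn2* were higher in KO1 than in each of the other 7 libraries, the next being WT3 at 3.28, 1.61 and 1.77 CPM. *Ly6g* and *Retnlg*, genes of the mature neutrophil, were at 0 reads in all 8 libraries. In WT1 and WT2, where *Ltf* was highest, *Camp*, *Ngp*, *Lcn2* and *Olfm4* were at 0 reads.

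Of 12 azurophil and promyelocyte genes, 6 were over 2-fold higher in KO1 than in KO2 and none lower. These included *Nkg7*, a cytotoxic granule membrane protein gene (13.1 and 4.38 CPM), *Plac8* (53.2 and 23.5 CPM), *Clec12a*, a myeloid lectin receptor (3.13 and 0.393 CPM), and *Hp* (9.30 CPM and 0 reads). The 2 most abundant, *Srgn* (serglycin, the granule proteoglycan) and *Ctsc* (the protease that activates the granule serine proteases), were at 748.8 and 484.1 CPM and at 207.0 and 184.1 CPM. Of 14 myeloid transcription factors and growth factor receptors, none was over 2-fold higher and 3 were lower, *Egr1* (6.21 and 32.8 CPM), *Csf1r*, the M-CSF receptor (2.25 and 7.18 CPM), and *Fcgr3* (1.37 and 5.07 CPM). *Spi1*, which encodes PU.1, was at 236.1 and 168.5 CPM and *Cebpb* at 74.5 and 56.2 CPM.

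Other markers also moved between KO1 and KO2. Summed neutrophil markers were 288.6 CPM in KO1 and 36.0 CPM in KO2, with 7 of 9 tested genes over 2-fold higher. These markers are not separate from the values above. They include the members *S100a8*, *S100a9* and *Ltf*, which made up 232.6 and 30.0 CPM of the 2 sums and 3 of the 7 genes. The rest of the markers are also in the secondary granule list. All 6 megakaryocyte markers were over 2-fold higher in KO1 (1079 against 132.7 CPM in sum), including platelet factor 4 (*Pf4*, 744.6 and 50.1 CPM). All 9 erythroid and all 6 hepatocyte markers were over 2-fold lower in KO1, at 690.8 against 3102 CPM and 6.26 against 213.8 CPM in sum, as were 8 of 11 tested macrophage markers, with 2 higher (17.0 against 87.6 CPM). None of the 11 LT-HSC markers passed 2-fold. Summed lymphoid markers were at 81.8 and 53.7 CPM and mast cell, basophil and eosinophil markers at 2.84 and 4.43 CPM, and *Epx*, *Rag1* and *Cd3e* were at 0 reads in every library. The part of these cell types in the granule gene difference was not tested.

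In KO against WT/HET no gene of the 3 lists was called by edgeR, and the counts that follow stand beside 15.7% of all genes higher and 9.48% lower at an unadjusted p under 0.05. Of the azurophil list, 2 genes (*Srgn* 1.15, *Gfi1* 2.71) were higher and 1 (*Clec12a* -2.76) lower at an unadjusted p under 0.05, and the list's median log2 fold change was 0.00. Of the secondary granule list, 1 was higher (*Anxa1* 1.26) and 1 lower (*Mmp8*, at 0 reads in both KO libraries and 0 to 5.04 CPM in the others), with a median of 1.28. *Mmp8* and *Chil3*, the 2 tested genes of this list at 0 reads in both KO libraries, lay on the lower side of that median. Of the transcription factor and receptor list, 7 of 14 were higher at that p and none lower, with a median of 1.04, among them *Spi1* (1.88 ± 0.58, edgeR adjusted p = 0.152). The median over all genes tested was 0.13, and that of the 11 LT-HSC markers was 2.77, with all 11 at an unadjusted p under 0.05. *Spi1* was at 236.1 and 168.5 CPM in KO, 50.8, 95.8 and 17.9 CPM in the female references, and 275.9, 289.5 and 151.1 CPM in the male ones, so its KO level lay among the male references. In HET against WT the list medians were -0.27, -0.95 and -0.23, with no call and with 1, 4 and 2 genes at an unadjusted p under 0.05.

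Per kilobase of exon, the order of the 10 genes by median over the libraries was *Prtn3* (53.7 CPM per kb), *S100a9* (28.6), *Mpo* (25.8), *S100a8* (20.3), *Elane* (13.8), *Ctsg* (2.63), *Ms4a3* (2.41), *Ltf* (1.20), *Cebpe* (0.770) and *Cebpa* (0.183). Neighbours in this order overlapped in range, from *Prtn3* (10.6 to 87.6) and *S100a9* (0.480 to 235.5) to *Cebpe* (0 to 1.72) and *Cebpa* (0.0951 to 0.383). *Prtn3* was first in WT1, WT2 and KO2, *S100a9* in WT3, HET3 and KO1, *Mpo* in HET1 and *Elane* in HET2. KO1 thus led with a calprotectin gene and KO2 with an azurophil protease.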

How the data were processed

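The authors deposited raw read counts per Ensembl gene for 8 bulk RNA-seq libraries of E14.5 FL LT-HSCs. Per the methods and the submitters' processing notes, reads were trimmed with Trim Galore 0.6.6, aligned to GRCm38 with STAR 2.7.8 and counted when uniquely mapped; the strand column is not given in the sources used here. A deposited table of normalised log2 values, corrected for sex, was not used. Symbols were matched for 55141 of 55487 identifiers (GENCODE M21), and promoters came from RefSeq.

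Genes under 10 reads over the libraries tested were left out. Counts were TMM-normalised and fitted in edgeR 4.0.16 (legacy quasi-likelihood, R 4.3.3) with sex and genotype and Benjamini-Hochberg adjustment. Standard errors of edgeR fold changes were derived from the F statistic, as the absolute log2 fold change over its square root. They are unreliable for fold changes near 0. A call needed an adjusted p under 0.05 and a change of over 1 in log2 in either direction. Alternatives were DESeq2 1.42.0, alone or with shrinkage by apeglm 1.24.0, other normalisations, filters, references, sex terms, the replicate block, and leaving out each library. Omitting WT3 and HET3, the female coefficient, a floor of 3 reads in KO1 against KO2 and further likeness profiles were added after seeing the data. log2 CPM used a prior count of 2. Only the edgeR fit of KO against WT/HET was tried on simulated counts, and its power is not given here.

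The members and lists were chosen with earlier results of these data known. All members are named; from each list, the 2 genes of highest mean CPM, those called, and those past 2-fold between KO1 and KO2 with a mean of at least 5 CPM. The labels number WT and HET libraries 1 to 3. Deviations of same-numbered WT and HET libraries correlated across genes (r = 0.65, 0.49 and 0.77). Differently numbered libraries were not compared, so these values cannot show that the numbers pair them. WT1 and HET1 share sex and RNA label, as do WT3 and HET3, but WT2 and HET2 do not. The fits with a replicate block took the numbers as pairs, as an assumption. Libraries differed by more than sampling noise (chi-square of 20.7 to 292.9 per gene), so none was merged. The labels call them independent biological replicates. Intervals and floors cover counting error only.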

Additional observations from a re-analysis of the deposited data

Results flagged for a closer look

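Among the 6 WT and HET libraries, each of the 10 genes was checked for a library far from the others. The check was Dixon's ratio of gap to range at its 95% critical value, and 3 of 10 passed. For normally distributed values, chance alone passes it in about 1 of 20 such checks. The ratio was taken on CPM and not on log2 CPM, and *S100a8* and *S100a9* spanned 0.460 to 116.9 and 0.251 to 122.9 CPM. That rate may therefore not hold for them. As the subunits of calprotectin they are also not independent checks. *Prtn3* in HET3 was at 18.3 CPM, with the next library at 80.2 CPM (ratio 0.710). *S100a8* in WT3 was at 116.9 CPM, with the next at 21.9 CPM (0.816), and *S100a9* in WT3 was at 122.9 CPM, with the next at 43.1 CPM (0.651). HET3 and WT3 are the 2 libraries with the lowest summed LT-HSC markers (204.3 and 282.2 CPM) and the most hepatocyte RNA, and the part of this in the 3 values was not tested. The KO library KO1 held 118.2 CPM of *S100a8*, with 1849 CPM of LT-HSC markers and the highest *Camp* and *Ngp* of the 8 libraries (35.0 and 8.27 CPM). The part of library composition in that value was not tested either.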

How the results depend on the processing

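Genes and members called in KO against WT/HET moved from 0 and 0 to 1106 and 2 with no filter, 1825 and 2 by DESeq2, 1457 and 1 with apeglm and 706 and 1 against WT alone, and ranged from 0 to 703 and from 0 to 1 with one library left out, 703 and 1 (*Ltf*) being without HET2 and 8 genes without HET1. RLE, library size, filterByExpr, no sex, HET alone, female libraries alone and both forms of the replicate block called none. In HET against WT the genes called moved from 0 to 131 with no filter, 52 by DESeq2, 230 with the replicate block in place of sex, 0 to 76 with one library left out (76 without HET2) and 1929 without WT3 and HET3, where 4 members were called, and 1 with no filter. The block changed no member's call. Same-numbered KO libraries correlated with WT and HET at 0.56 and 0.44 (replicate 1) and at -0.60 and -0.34 (replicate 2). These deviations are from the mean of the genotype, so those of the 2 KO libraries are mirror images. The negative values with KO2 thus mean that WT2 and HET2 went with KO1. The values therefore do not show that the numbers pair KO libraries with the others. filterByExpr left out *Cebpa* in HET against WT and gave it no value. The early sum exceeded the late sum in 5 libraries without *Mpo*. On log2 CPM with the prior count, 6 members passed 3-fold between KO1 and KO2 (8 passed 2-fold with counts under 3 set to 3). The 6 include *Ctsg*, with 5 and 0 reads, which came to 1.66-fold against 3 reads. The share of all genes was not counted for either of these settings, so neither count can be read as a result about the members.

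Of 220 member values under alternatives in KO, 23 changed sign. *Prtn3* was at -0.08 with block and sex. *Cebpa* was at 0.01 with library size only, 0.09 with the block alone, 0.15 against HET alone, and 0.15 and 0.01 without WT3 and HET3 (with and without sex). *S100a8* was at -0.50 with block and sex and -0.81 against WT alone. *S100a9* was at 0.27 with library size only, 0.92 without sex, 4.95 with the block alone, 0.94 against HET alone, and 0.41 and 2.36 without WT3 and HET3 (with and without sex). *Ltf* was at -0.03 without sex, -0.73 with the block alone, and -0.61 without WT3, HET3 and sex. In HET, *Mpo* was at -0.46 with block and sex, *Prtn3* at 0.07 without WT3 and HET3, *Ms4a3* at -0.01 with library size only and -0.70 with block and sex, *S100a8* at -0.02 with library size only, -1.53 without sex and -0.35 with block and sex, and *S100a9* at 0.28 with the block alone. The cause of these changes was not tested.

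With one library left out, KO log2 fold changes ran from -2.65 to -1.26 for *Mpo*, -6.93 to -1.79 for *Elane*, 0.15 to 1.15 for *Prtn3*, -10.89 to -5.56 for *Ctsg*, -2.57 to -0.88 for *Ms4a3*, -0.45 to 0.14 for *Cebpa*, -8.01 to 0.25 for *Cebpe*, -1.82 to 1.88 for *S100a8*, -2.35 to 0.92 for *S100a9* and 2.82 to 6.25 for *Ltf*. The lowest values of *Ctsg* and *Cebpe* are without KO1, where the remaining KO library has 0 reads, and depend on the prior count. In HET they ran from -1.35 to 2.18 for *Mpo*, -0.85 to 6.79 for *Elane*, -0.86 to 0.06 for *Prtn3*, -0.21 to 3.31 for *Ctsg*, -0.46 to 0.61 for *Ms4a3*, -1.01 to 1.79 for *Cebpa*, -2.72 to 3.40 for *S100a8*, -2.01 to -0.18 for *S100a9*, -0.98 to -0.60 for *Cebpe* and -2.0 to 2.05 for *Ltf*. Scaling by library size moved the median log2 fold change of all genes in KO from 0.13 to 0.41. *Cebpa*, *Cebpe* and, in KO, *Ctsg* rest on few reads, and 2 KO libraries, both female, limit every KO comparison.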
